A study of Saccharomyces cerevisiae with 18 samples.

Results

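The 10 transcripts described here encode the translation machinery associated (TMA) proteins Tma7, Tma10, Tma16, Tma17, Tma19, Tma20, Tma22, Tma46 and Tma64 and the ribosome-bound protein Stm1. They were selected on a list of gene names, 10 of the 7126 genes in the count table, and on 1 readout of these data: TMA10 was higher in total RNA of the libraries labelled R28P-30A than in total RNA of WT. That comparison is therefore given as a description without a test, for all 10 members, as is TMA10 in total RNA of R28P-30B, both against the same labelled libraries and against the same WT extracts. All 10 members passed the filters on low values and were measured in every library.

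RNA was sequenced from Saccharomyces cerevisiae of the BY background grown to exponential phase at 30 °C. The labels name both Yc medium and a synthetic minimal medium. In R28P-30B and in the strain labelled R28P-30A, both chromosomal genes of ribosomal protein uL30 were replaced by markers (RPL7A by URA3, RPL7B by KMX), and a LEU2 plasmid carried the cDNA of RPL7B (R28P-30B) or RPL7A (R28P-30A) behind the RPS28A promoter with the ADH1 terminator. WT kept both chromosomal genes and carried no such plasmid, so the plasmid, its marker and the heterologous promoter differ between the plasmid strains and WT along with the paralog. All 3 strains were MATa with the same his3, leu2, lys2 and ura3 deletions. Each strain had 2 cultures, and from each culture came a total extract, a light fraction (40S, 60S and 80S) and a heavy fraction (tetrasomes and heavier polyribosomes), which made 18 poly(A) libraries of 17373839 to 31525927 reads (median 26575904).

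The strain checks split. Over its 6 libraries R28P-30B held 47409 URA3 reads, 730928 RPL7B reads, 930 RPL7A reads and 1 read each of snR39 and snR59, the snoRNAs lodged in the RPL7 introns. The 6 libraries labelled R28P-30A held 11 URA3 reads, 40519 RPL7B reads, 358251 RPL7A reads, 2616 snR39 reads and 563 snR59 reads, against 3, 58984, 295415, 2596 and 631 in WT. These go against a double deletion in the libraries labelled R28P-30A, although their 13091 LEU2 reads (96411 in R28P-30B and 6 in WT) set them apart from WT. They are called "labelled R28P-30A" throughout. Where "plasmid strains" is written below, it means R28P-30B and these libraries by their labels only. It does not mean that plasmid RPL7A was shown to be their only source of uL30. Summed CPM of 6 genes of the a mating type exceeded that of 4 alpha genes in all 18 libraries.

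TMA proteins were named for their association with yeast ribosomes, and they do not form a family by sequence. Tma20, Tma22 and Tma64 act when a ribosome has finished a message: Tma20 and Tma22, relatives of human MCT-1 and DENR, and Tma64, the yeast eIF2D, help to remove the 40S subunit and its bound tRNA. Stm1 binds ribosomes that are not translating and preserves them when nutrients run out. Tma19 is the yeast form of the translationally controlled tumor protein TCTP, Tma46 binds the GTPase Rbg1, Tma17 is a chaperone for assembly of the proteasome, and Tma7, Tma10 and Tma16 are known chiefly from their association with ribosomes. TMA10 has a paralog, STF2, named for a factor that stabilizes the inhibited mitochondrial ATP synthase.

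The readout of ribosome loading compared below is the translation index, the heavy CPM of a transcript divided by its light CPM, so the bases around the start codon are printed first, from the RefSeq R64 genome, 5′ to 3′ on the coding strand with the start codon in capitals.
TMA7: gcaatcATGtct
TMA10: tcaaacATGacc
TMA16: ctaatcATGccg
TMA17: aacataATGtgc
TMA19: acaaatATGatt
TMA20: gaggaaATGttt
TMA22: cataaaATGtta
TMA46: tcgaagATGcca
TMA64: acagctATGttt
STM1: ttctcaATGtcc
The third base before the start codon was an A in 7 of the 10 members, a G in TMA20 and TMA64 and a T in STM1, against an A at 60.9% of 5990 annotated genes. The 3 members without an A there had the 3 highest mean indexes in WT, 1.25 (TMA20), 1.79 (TMA64) and 2.39 (STM1), while the 7 with an A ran from 0.248 (TMA10) to 1.15 (TMA22). This was seen after the values were known and was not tested.

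The members are spread over 6 chromosomes, and no other counted gene with coordinates in the RefSeq R64 annotation overlaps any of them. Any counted gene without such coordinates was not checked. TMA7 (YLR262C-A, chrXII:669468-669662, minus strand, 195 nt of coding sequence) is the shortest and TMA64 (YDR117C, chrIV:683946-685643, minus strand, 1698 nt) the longest. Between them lie TMA10 (YLR327C, chrXII:783127-783387, minus strand, 261 nt), TMA17 (YDL110C, chrIV:264512-264964, minus strand, 453 nt), TMA19 (YKL056C, chrXI:334412-334915, minus strand, 504 nt) and TMA16 (YOR252W, chrXV:803667-804203, plus strand, 537 nt). TMA20 (YER007C-A, chrV:166237-166885, minus strand, 546 nt in 2 coding parts) is the only member whose coding sequence is split by an intron. TMA22 (YJR014W, chrX:461829-462425, plus strand, 597 nt), STM1 (YLR150W, chrXII:440467-441288, plus strand, 822 nt) and TMA46 (YOR091W, chrXV:493433-494470, plus strand, 1038 nt) complete the set.

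In total RNA, TMA10 had the largest difference between strains among the members. Its level per coding length was 51.8 and 98.2 TPM (read counts per coding length, scaled to the library total) in R28P-30B, 21.2 and 22.7 TPM in the libraries labelled R28P-30A, and 11.7 and 10.5 TPM in WT. The 3 strains did not overlap, R28P-30B was the highest, and its 2 cultures were also the furthest apart. The WT values rest on 96 and 87 reads, and those of R28P-30B on 423 and 646 reads. limma on log2(TPM + 1), with a spread shared by the 3 strains, gave a log2 difference of 2.58 (SE 0.165) for R28P-30B against WT. No p is given for it, since the WT extracts are those of the comparison that chose the members. The description of the libraries labelled R28P-30A against WT, which chose the members, was 0.93 on the same scale, and that of R28P-30B against the libraries labelled R28P-30A was 1.66. These are shares of poly(A) RNA from bulk cultures, in which more cells holding a transcript and more transcript per cell cannot be told apart.

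**Figure D1:**
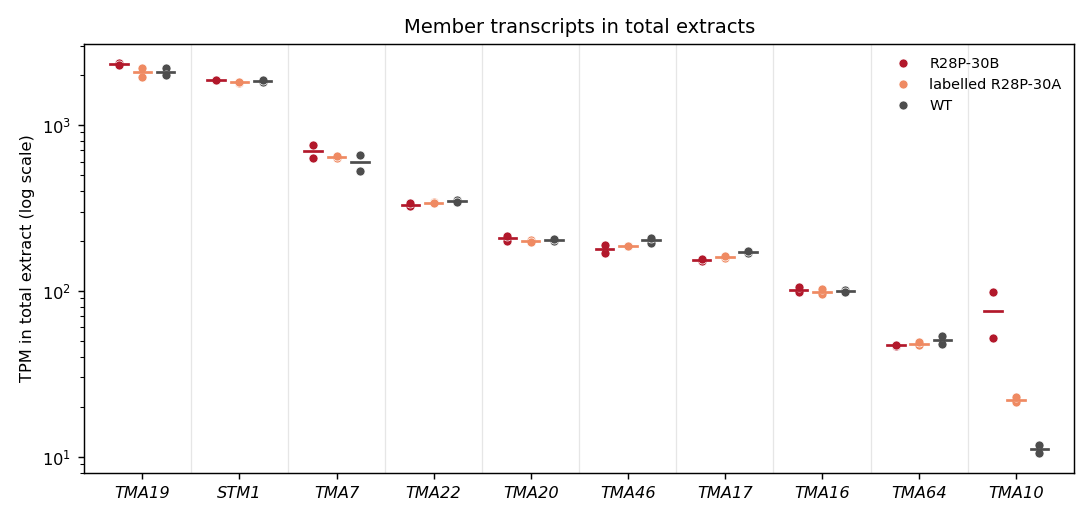
TPM of each member in the total extracts (log axis), 1 point per culture and a bar at the mean of 2 cultures, for R28P-30B, the libraries labelled R28P-30A and WT. TMA10 is the lowest member in WT, at a mean of 11.1 TPM, and the member whose strains separate most, with R28P-30B at a mean of 75.0 TPM.

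The other 9 members differed from WT by less in total RNA. In R28P-30B against WT limma called 0 of these 9 at a Benjamini-Hochberg adjusted p under 0.05, where 24.2% of the 5681 genes tested were called. In the same fit 3 of the 9 (TMA7, TMA17 and TMA46) had an unadjusted p under 0.05, as did 2026 of the 5681 genes. edgeR and DESeq2 called 0 of the 9. These 3 passed with the replicate number as a block (adjusted p = 0.0299 for TMA7, 0.0419 for TMA17 and 0.0327 for TMA46). The differences of the other 9 lay between −0.17 (TMA46) and 0.22 (TMA7) on the log2 scale. TMA7, in which the R28P-30B extracts (750.1 and 634.7 TPM) overlapped those of WT (659.5 and 528.4 TPM), came nearest to the threshold (SE 0.0863, adjusted p = 0.0630). It passed in the fit of R28P-30B and WT alone (adjusted p = 0.00436), without R28P-30B replicate 2 (0.00249), without WT replicate 1 (0.0239) and without replicate 1 or 2 of the libraries labelled R28P-30A (0.00437 and 0.00429). Against the libraries labelled R28P-30A, limma called 0 of the 9 members other than TMA10, where 12.2% of all genes were called. Of these members 1, TMA19, had an unadjusted p under 0.05, as did 1430 of the 5681 genes. edgeR and DESeq2 called 0 there as well. TMA19 reached an adjusted p of 0.0184 when replicate 1 of the libraries labelled R28P-30A was left out. Set against WT, the libraries labelled R28P-30A had differences in these 9, given as a description, that ran from −0.11 (TMA46) to 0.11 (TMA7).

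The order of the members was almost the same in the 3 strains. TMA19 was the most abundant in total RNA, at 2321 ± 27.0 TPM in R28P-30B, 2065 ± 177 TPM in the libraries labelled R28P-30A and 2094 ± 152 TPM in WT (SD, n = 2 cultures each). STM1 followed at 1857 ± 6.54, 1798 ± 3.25 and 1829 ± 43.1 TPM in the same strain order. TMA7 came next at 692 ± 81.7, 639 ± 9.13 and 594 ± 92.7 TPM, then TMA22 at 329 ± 9.80, 339.7 ± 3.45 and 348 ± 5.31 TPM. TMA20 and TMA46 did not separate in WT, at 202 ± 3.98 TPM and 201 ± 10.1 TPM. TMA17 (170 ± 3.11 TPM in WT), TMA16 (99.3 ± 2.48 TPM) and TMA64 (50.5 ± 3.83 TPM) were lower. TMA10 was last in WT and in the libraries labelled R28P-30A, whereas in R28P-30B its mean of 75.0 ± 32.8 TPM stood above TMA64 at 46.8 ± 0.349 TPM, with TMA10 the higher in both cultures.

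TMA10 was higher in R28P-30B in all 3 kinds of library. In light fractions it was at 21.7 and 33.5 CPM (read counts scaled to the library total) in R28P-30B, 13.4 and 14.8 CPM in the libraries labelled R28P-30A, and 6.06 and 4.81 CPM in WT. In heavy fractions it was at 5.01 and 7.59 CPM in R28P-30B, 3.17 and 2.95 CPM in the libraries labelled R28P-30A, and 1.16 and 1.47 CPM in WT. The strains kept their order without overlap in each fraction. The mean of R28P-30B over that of WT was 6.73 in total extracts, 5.08 in light fractions and 4.80 in heavy fractions. That of the libraries labelled R28P-30A over WT was 1.98, 2.59 and 2.33. These polysome ratios come from the same cultures and carry no test of their own.

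**Figure D2:**
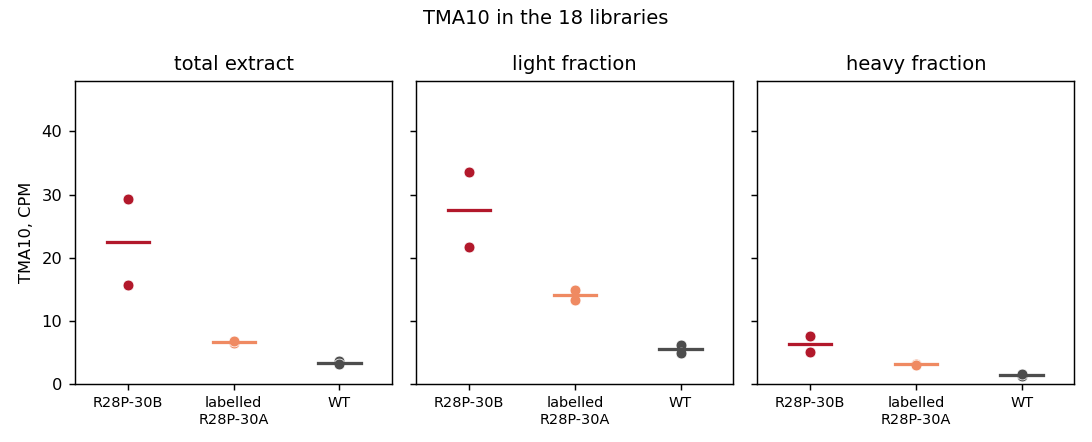
TMA10 in CPM (linear axis from 0) in the 18 libraries, 1 point per culture and a bar at the mean, for total extracts, light fractions and heavy fractions. In each panel both R28P-30B points lie above both points labelled R28P-30A, and these above both WT points.

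The DNA upstream of TMA10 is shown because TMA10 had by far the largest difference in total RNA. The 200 bases from 300 to 101 before its start codon (R64, chrXII:783488-783687, minus strand, written 5′ to 3′ on the coding strand) have the matches to the TATA box in capitals.
TMA10 upstream: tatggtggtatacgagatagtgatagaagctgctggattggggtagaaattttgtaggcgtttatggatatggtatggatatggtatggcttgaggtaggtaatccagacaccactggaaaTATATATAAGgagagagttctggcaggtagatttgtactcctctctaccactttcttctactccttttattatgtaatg
The motifs were chosen after this stretch had been read, and a match is a description of letters. The TATA box was searched on both strands as TATA, then A or T, A, A or T, and A or G. On the coding strand it matched at 179 and at 177 bases before the start codon of TMA10, with the 2 matches overlapping, and the first of them reads the same on the other strand. A match on either strand was found in 3 of the 10 members (TMA10, TMA17 and TMA19) and in 29.7% of 5993 windows of the same length. The stress response element, AGGGG or its reverse complement CCCCT, was not found in the 300 bases before the start codon of TMA10. It was found there in TMA17 (2 matches) and STM1 (1 match) and in 22.2% of 5993 such windows. In total RNA of R28P-30B against WT, TMA17 had a log2 difference of −0.15 and STM1 of 0.02, and neither passed the test. STF2, the paralog of TMA10, has 2 matches, at 280 and 189 bases before its start codon, and did pass, with the values given next.

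STF2 was also higher in R28P-30B. It was at 130.4 and 152.7 CPM in total extracts of R28P-30B, 94.4 and 92.7 CPM in those labelled R28P-30A, and 67.8 and 71.4 CPM in WT. The strains did not overlap and followed the order of TMA10. The log2 difference in TPM of R28P-30B against WT was 1.02 (SE 0.0738, adjusted p = 1.23e-09), smaller than that of TMA10. The longest run shared by the 2 coding sequences was 12 nt, so a read covering more of either gene than that does not match both exactly.

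The 5 transcripts most like TMA10 were found by Pearson correlation of log2(CPM + 0.1), centred within each kind of library, among 5176 genes above 10 TPM over the 18 libraries. Since the 3 libraries of a culture share their cells, the 18 points are not independent. RGI1 (r = 0.98) had 21.2 and 27.8 CPM in total extracts of R28P-30B, 12.9 and 12.4 CPM in those labelled R28P-30A, and 7.38 and 9.43 CPM in WT. It was followed by AFR1 (r = 0.98), SLT2 (r = 0.97), CRG1 (r = 0.97) and KDX1 (r = 0.97). SLT2 encodes the kinase of the cell wall integrity pathway and KDX1 a related kinase-like protein, and SLT2 averaged 319 CPM in total extracts of R28P-30B, 213 CPM in those labelled R28P-30A and 171 CPM in WT. The choice by correlation fixed that the 5 follow the strain order of TMA10.

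A list of 20 stress genes, which includes STF2, moved both ways in total RNA. In R28P-30B against WT 10 rose and 4 fell, where 24.2% of all genes were called (601 higher and 772 lower). The median log2 difference of the 20 was 0.25 against −0.05 over all genes tested. Besides STF2 the largest increase was that of SPI1, a cell wall protein (0.74, SE 0.109, adjusted p = 2.86e-05). HSP26, a small heat shock protein, had the largest decrease (−0.92, SE 0.0775, adjusted p = 1.13e-08), followed by the hydrophilin gene GRE1 (−0.54, SE 0.134, adjusted p = 0.00487). Against the libraries labelled R28P-30A 4 rose and 2 fell, where 12.2% of all genes were called. STF2 (0.59, adjusted p = 6.56e-06) led the increases and HSP26 (−0.99, adjusted p = 9.97e-09) the decreases.

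The members differed far more from each other in translation index than between strains. In WT the mean index was 0.248 ± 0.0803 for TMA10, 0.282 ± 0.00179 for TMA7 and 0.584 ± 0.0558 for TMA17 (SD, n = 2 cultures), with TMA10 and TMA7 in the lowest 3.97% and 5.24% of the 5664 genes tested. TMA10 and TMA7 did not separate, since the cultures of TMA10 (0.191 and 0.305) lay on both sides of those of TMA7. TMA16 (1.06 ± 0.105), TMA19 (1.08 ± 0.0295), TMA46 (1.09 ± 0.0522) and TMA22 (1.15 ± 0.0161) lay near 1. TMA16, TMA19 and TMA46 overlapped in their cultures, and TMA22 overlapped TMA16. TMA20 followed at 1.25 ± 0.0294, TMA64 at 1.79 ± 0.0298 and STM1 at 2.39 ± 0.0251, above 96.0% of genes. The median gene was at 0.860. Because each library is scaled to its own total, an index of 1 does not mean equal amounts in the 2 fractions, and the index orders transcripts rather than counting ribosomes. Coding length and log2 index had a Pearson r of 0.85 over the 10 members and of 0.45 over all genes tested, as a description across genes, which are not replicates. STM1, with 822 nt, lay above TMA46 and TMA64, which are longer.

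**Figure D3:**
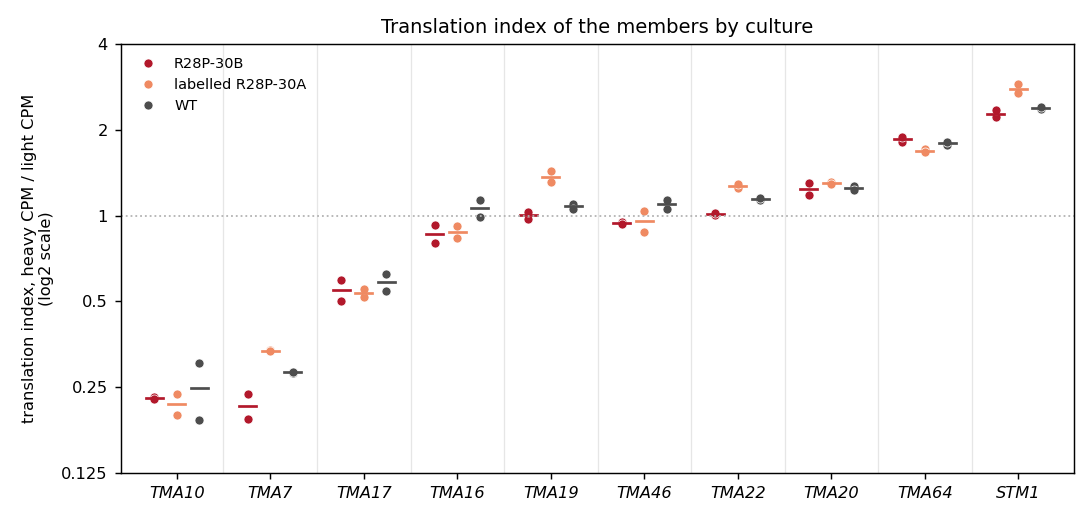
Translation index (heavy CPM over light CPM, log2 axis) of each member, 1 point per culture and a bar at the mean, for R28P-30B, the libraries labelled R28P-30A and WT, ordered by the WT mean. TMA7, TMA19, TMA22 and STM1 lie lower in both cultures of R28P-30B than in both labelled R28P-30A, and WT lies between them.

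Between R28P-30B and the libraries labelled R28P-30A, 4 members differed in index, TMA7, TMA19, TMA22 and STM1, all lower in R28P-30B. That is 4 of 10 members where 42.7% of all genes were called, so the share of members was near that of genes in general. What can be described is which members moved and in which fraction.

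TMA7 had the largest difference. Its index was 0.193 and 0.236 in R28P-30B, against 0.338 and 0.334 in the libraries labelled R28P-30A, with WT between them at 0.280 and 0.283. The strains did not overlap. The log2 difference of R28P-30B from the libraries labelled R28P-30A was −0.65 (SE 0.135, adjusted p = 0.00544, limma), while the median of all genes was 0.07. The lower index came with a higher light fraction. TMA7 was at 311 and 306 CPM in light fractions of R28P-30B, against 162 and 176 CPM in those labelled R28P-30A. WT was at 192 and 202 CPM. Heavy fractions were also higher in R28P-30B, which by itself would raise the index. They held 60.0 and 72.3 CPM in R28P-30B, 54.9 and 58.6 CPM in those labelled R28P-30A, and 53.8 and 57.2 CPM in WT. In ratios of means, R28P-30B over the libraries labelled R28P-30A was 1.83 in light and 1.17 in heavy fractions, and 1.08 in total extracts.

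For TMA19, the TCTP gene, the index was 0.975 and 1.03 in R28P-30B, against 1.31 and 1.43 in the libraries labelled R28P-30A, with WT at 1.10 and 1.06. Here the libraries labelled R28P-30A stood apart and R28P-30B lay just below WT. The log2 difference between the plasmid strains was −0.45 (SE 0.0863, adjusted p = 0.00390). Light fractions held 1656 and 1621 CPM in R28P-30B, 1058 and 1119 CPM in those labelled R28P-30A, and 1437 and 1344 CPM in WT. Heavy fractions held 1616 and 1665 CPM in R28P-30B, 1383 and 1599 CPM in those labelled R28P-30A, and 1579 and 1420 CPM in WT, where the labelled R28P-30A and WT ranges overlapped.

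TMA22, the DENR relative, and STM1 differed by less. The TMA22 index was 1.01 and 1.02 in R28P-30B, against 1.25 and 1.29 in the libraries labelled R28P-30A, with WT at 1.13 and 1.16 (log2 difference between the plasmid strains −0.33, SE 0.0784, adjusted p = 0.0111). The STM1 index was 2.22 and 2.34 in R28P-30B, against 2.70 and 2.88 in the libraries labelled R28P-30A, with WT at 2.37 and 2.41 (−0.29, SE 0.0853, adjusted p = 0.0250). In both, WT lay between the plasmid strains. In CPM the light fraction differed between the plasmid strains and the heavy fraction overlapped. TMA22 had 271 and 273 CPM in light fractions of R28P-30B, against 222 and 225 CPM in those labelled R28P-30A. STM1 had 1390 and 1325 CPM in light fractions of R28P-30B, against 1099 and 1163 CPM in those labelled R28P-30A. The fraction that differed depended on the scaling. In TPM the light fractions of STM1 overlapped, at 1097 and 1029 in R28P-30B, against 1036 and 1050 in those labelled R28P-30A. TMA22 heavy fractions were lower in R28P-30B in TPM, at 417 and 427, against 435 and 437 in those labelled R28P-30A. For Tma20, with which Tma22 works as a pair, the TMA20 index was 1.18 and 1.30 in R28P-30B, against 1.31 and 1.29 in the libraries labelled R28P-30A. It did not pass (−0.07, adjusted p = 0.557), but passed once cultures were centred on the median gene (−0.25, adjusted p = 0.0333).

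**Figure D4:**
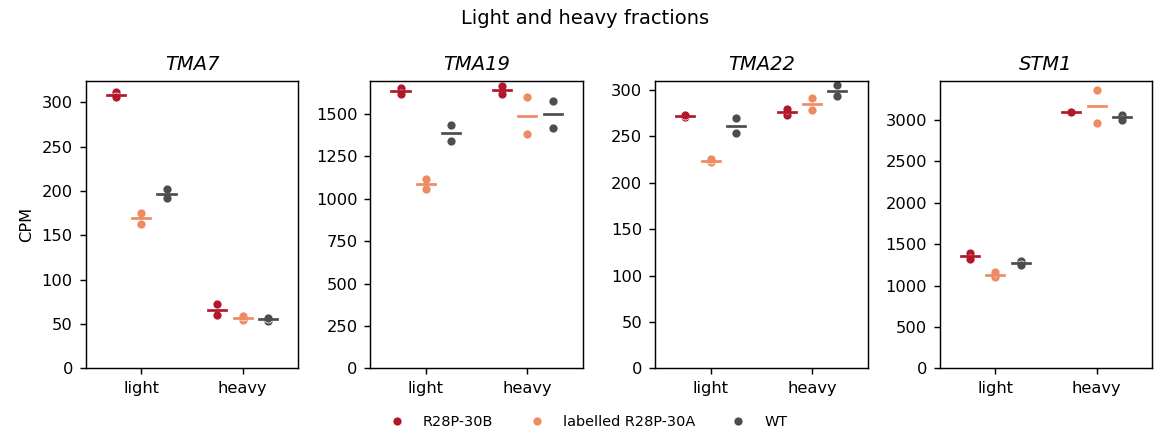
CPM (linear axes from 0, a scale for each gene) of TMA7, TMA19, TMA22 and STM1 in light and heavy fractions, 1 point per culture and a bar at the mean, for R28P-30B, the libraries labelled R28P-30A and WT. In the light fraction both R28P-30B points lie above both points labelled R28P-30A for all 4 genes, whereas in the heavy fraction these strains overlap for TMA22 and STM1.

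All 4 calls held with centring on the median gene, and only that of TMA7 held with an index from TPM. An index from TPM instead of CPM, added after the data were seen, shifted the median difference between the plasmid strains to 0.30, and centring each culture on its median gene shifted it to −0.11. From TPM the difference of TMA7 was −0.42 (adjusted p = 0.0338), that of TMA19 −0.22 (0.0767), that of TMA22 −0.09 (0.358) and that of STM1 −0.06 (0.607), while TMA64 reached 0.36 (0.00627). Of the genes called, the share higher in R28P-30B was 69.2% with CPM, 94.5% with TPM and 40.7% with centring. Per coding length, light fractions averaged 1019 TPM of TMA7 in R28P-30B, against 657 TPM in those labelled R28P-30A, and 1063 TPM of STM1, against 1043 TPM. In the same order TMA19 averaged 2092 and 1637 TPM. TMA22 averaged 293 and 284 TPM, with WT above both at 307 TPM. TMA22 lost its call without R28P-30B replicate 1 (adjusted p = 0.0526) or replicate 2 of the libraries labelled R28P-30A (0.0563). STM1 lost it without either of these (0.109 and 0.131) and without R28P-30B replicate 2 (0.0583).

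The other 6 members showed index differences between the plasmid strains from −0.07 (TMA20) to 0.13 (TMA64), none past the threshold. TMA10, in spite of its higher level in total RNA, had an index of 0.231 and 0.226 in R28P-30B. The index was 0.237 and 0.199 for the libraries labelled R28P-30A, and 0.191 and 0.305 in WT. The strains overlapped, and the log2 difference between the plasmid strains was 0.05 (SE 0.208, adjusted p = 0.851). That standard error is the largest among the members. The heavy fractions held 108 and 181 reads of TMA10 in R28P-30B, against 88 and 80 for the libraries labelled R28P-30A, and 24 and 42 in WT, and the part of depth in its error was not tested. TMA10 and TMA7 are the shortest members and had similar WT indexes, but in this comparison TMA7 passed the test and TMA10 did not.

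Against WT limma called fewer members with the CPM index. In the libraries labelled R28P-30A only TMA19 passed, 1 of 10 members where 24.3% of all genes were called, with a log2 difference of 0.34 (SE 0.0863, adjusted p = 0.0248) and a median of all genes of −0.13. The call was lost without WT replicate 1 (adjusted p = 0.0816), without WT replicate 2 (0.107), without replicate 2 of the libraries labelled R28P-30A (0.130), with no filter on low values (0.0666) and with the index from TPM (0.0806). Relative to the median gene more members stood higher: with each culture centred, TMA19, TMA22 (0.32, adjusted p = 0.0274) and STM1 (0.39, adjusted p = 0.0221) passed. edgeR and DESeq2 each called 4 of the 10, these and TMA7, where they called 1478 and 1164 of the 5664 genes. For TMA7 edgeR gave 0.42 (adjusted p = 0.00707) and DESeq2 0.44 (adjusted p = 0.00452). Over all genes, the share of calls with a higher index than in WT was 14.8% with CPM and 59.1% with centring. The count of genes called fell to 332 without WT replicate 1. TMA46 (−0.19) and TMA16 (−0.28), the Rbg1-binding and a ribosome-associated protein, did not pass with CPM and passed with the index from TPM (−0.31, adjusted p = 0.0403, and −0.40, adjusted p = 0.0271).

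In R28P-30B against WT limma called 0 of 10 members where 13.8% of all genes were called. An unadjusted p under 0.05 was found in 2 members and in 1933 of the 5664 genes. edgeR called 2 and DESeq2 1 of the 10, where they called 1329 and 894 of the 5664 genes. The 781 genes called became 5 when WT replicate 2 was left out. Without R28P-30B replicate 2 they became 0, where limma gave 1311 genes an unadjusted p under 0.05. TMA7 was the nearest, with a log2 difference of −0.40 (SE 0.135, adjusted p = 0.0811), and both R28P-30B cultures lay below both WT cultures. With the spread modelled over the mean CPM, also added after the data were seen, TMA7 passed (adjusted p = 0.0109), as it did with edgeR (0.0113) and DESeq2 (0.0142). In light fractions TMA7 in R28P-30B was 1.57 times WT in the ratio of means. TMA16 differed by −0.30 (adjusted p = 0.108) and the other 8 members by −0.22 (TMA46) to 0.04 (TMA64). The comparisons share libraries, since the same R28P-30B, labelled R28P-30A and WT cultures enter more than 1 of them.

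The length of a transcript moved with the index differences. Over all 5664 genes the log2 index difference of R28P-30B from the libraries labelled R28P-30A had a Pearson r of 0.60 with log2 coding length, and over the 10 members of 0.48, both as descriptions across genes. The median difference was −0.23 in the 255 genes of up to 300 nt, −0.22 in the 827 genes above 300 and up to 600 nt, 0.31 in the 1677 genes above 1500 and up to 3000 nt, and 0.89 in the 480 genes above 3000 nt. TMA7 (−0.65) lay below the median of its length class and TMA10 (0.05) above it. In the class above 300 and up to 600 nt, TMA19 (−0.45) and TMA22 (−0.33) lay below the median. TMA16 (−0.02), TMA17 (0.03) and TMA20 (−0.07) lay above it. STM1 (−0.29) lay below the −0.14 of genes above 600 and up to 900 nt. TMA46 (−0.02) was close to the −0.01 of genes above 900 and up to 1500 nt, and TMA64 (0.13) lay below that of genes above 1500 nt. The part of length in the members' differences was not tested.

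**Figure D5:**
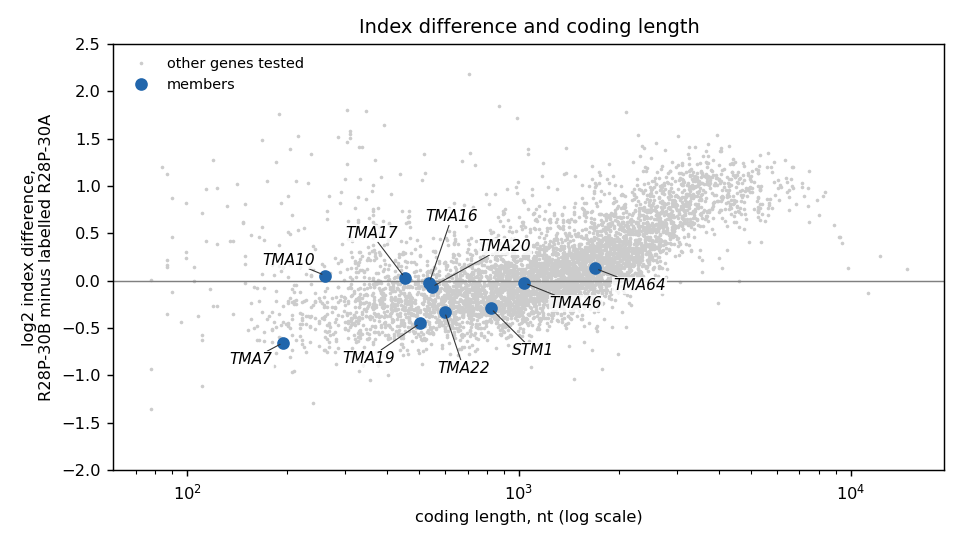
Log2 index difference of R28P-30B minus the libraries labelled R28P-30A against coding length in nt (log axis) for 5664 genes (grey) and the 10 members (blue). The cloud rises with length, TMA7 at −0.65 is the lowest member and TMA64 at 0.13 the highest.

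Transcripts of proteins that work with the members followed no single direction. In index between R28P-30B and the libraries labelled R28P-30A, 42.7% of all genes were called. The 4 of 8 partners and 4 of 9 chaperones called below were near that share. Of the other TMA genes, TMA23 and TMA108, both had a higher index in R28P-30B than in the libraries labelled R28P-30A (0.51, adjusted p = 0.00750, and 0.66, adjusted p = 0.00127). Tma23 acts in ribosome biogenesis and Tma108 is a peptidase-like protein bound to ribosomes. Of 8 partners of the members 4 were higher in index in that comparison, 2 of them the near-identical copies EFT1 and EFT2, whose reads cannot be assigned with certainty. The others were YEF3 (0.88, adjusted p = 0.000594), which encodes elongation factor eEF3, and GCN1 (0.69, adjusted p = 0.00256), a ribosome-bound activator of Gcn2. Of 9 proteasome assembly chaperones, the class of Tma17, 4 were lower, led by ADD66 (−0.63, adjusted p = 0.00186) and POC4 (−0.61, adjusted p = 0.00688), while TMA17 itself had 0.03 (adjusted p = 0.849). Of 7 recycling and rescue factors tested, 1 of 8 listed having failed the filters, only TIF11 (eIF1A) differed (−0.38, adjusted p = 0.0152). The medians were 0.59 for the other TMA genes, 0.40 for the partners, −0.27 for the chaperones and 0.10 for the recycling factors, against 0.07 over all genes. The lists were not matched to all genes for coding length, which had a Pearson r of 0.60 with this difference. The part of length in the lists was not tested. The 20 stress genes had 8 higher and 4 lower, with a median of −0.14.

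In total RNA of R28P-30B against WT, where 24.2% of all genes were called, the lists other than the stress genes moved little. POC4 (−0.33, adjusted p = 0.00384) was the chaperone that fell. LSO2 (−0.30, adjusted p = 0.00143), a factor of dormant ribosomes, was the recycling factor that fell. EFT1 (0.26, adjusted p = 0.00834) was the partner that passed. Its reads cannot be told with certainty from those of EFT2 (0.18, adjusted p = 0.0585). Neither TMA23 nor TMA108 passed. limma gave these 2 no unadjusted p under 0.05.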

How the data were processed

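Poly(A) RNA was made into directional libraries (NEBNext Ultra II Directional). The authors aligned reads with STAR to the R64 genome, keeping all positions of a read, and counted genes with featureCounts. The authors deposited CPM (read counts scaled to the library total) for 18 libraries, and every column was matched to a sample. A deposited TPM table was not used. All CPM values lay within 0.05 of a whole read (100% of values), and the reads so recovered gave the depths and a TPM per coding length (R64 annotation, 6013 genes; at most 0.470% of a library's reads had none).

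Samples were grouped by strain, fraction and replicate in their labels. The translation index was tested with limma 3.58.1 (R 4.3.3) on the log2 ratio of heavy to light CPM, with 0.1 added to each, 1 value a culture, in 5664 genes whose WT total extracts averaged over 1 TPM and that had a read in each of the 12 fraction libraries, and total RNA on log2(TPM + 1) in 5681 genes, with eBayes with a trend, all 3 strains in 1 fit, and a Benjamini-Hochberg adjusted p under 0.05. Fold changes on these scales are understated for low genes. The p-values measure only the spread between 2 cultures a strain. The index was fitted first with limma's own trend, over the mean index, then with a trend over the mean CPM. The second was chosen after the results of the first were seen, was for a time taken as the reported fit and gave 1 member call more (TMA7 in R28P-30B against WT). The first follows the written design and is reported, with the second as an alternative. Alternatives were other pseudocounts, filters and scalings, a replicate block, edgeR 4.0.16 and DESeq2 1.42.0 on the recovered reads, 2-strain fits, no trend and leaving out each culture. The index from TPM, the trend over the mean CPM and a crossed block were added after the data were seen. The fits were tested on simulated data.

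The named genes were all 10 members, up to 4 genes of each list (the 2 largest increases and decreases past the threshold), the 5 genes most correlated with TMA10, and the strain checks. The members and lists were chosen with earlier results of these data known.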

Additional observations from a re-analysis of the deposited data

Results flagged for a closer look

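TMA7, TMA19, TMA22 and STM1 differed in translation index between the plasmid strains by the test of that difference, R28P-30B minus the libraries labelled R28P-30A: log2 −0.65, −0.45, −0.33 and −0.29 in that order. Each group had 2 cultures, and both R28P-30B cultures were the lower for all 4. With 2 cultures a group, no check for a culture far from the others could be made.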

How the results depend on the processing

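Over the alternatives run, 797 of 893 member values kept direction and call, 31 gained a call, 13 lost one and 52 turned direction, none of these past the threshold in either fit. The 893 include the 17 values of TMA10 in total RNA of R28P-30B against WT, which are a description and carry no test. TMA10 in total RNA of R28P-30B against WT ran from 1.96 to 3.04 over 17 alternatives, as a description, and TMA7 in index between the plasmid strains kept its call over 19 (−0.83 to −0.42, highest adjusted p = 0.0395). The causes of the changes below were not tested. Among the members TMA10 had the fewest reads (24 and 42 in heavy fractions of WT), and the part of depth in its changes was not tested. With the trend over the mean CPM, which was for a time the reported fit, 1747 genes were called for the libraries labelled R28P-30A against WT, 1283 in R28P-30B against WT and 2609 between the plasmid strains (1376, 781 and 2417 as reported), with 1, 1 and 4 members (1, 0 and 4 as reported).

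For the index of the libraries labelled R28P-30A against WT, genes called were 322 with no filter, 2299 from TPM and 332 to 1236 with a culture left out. Members called were 0 with no filter, 2 from TPM, 3 centred on the median gene (1076 genes called) and 2 scaled without ribosomal protein genes (1066 genes). They were 4 with edgeR (1478 genes) and 4 with DESeq2 (1164 genes). For R28P-30B against WT, genes called were 1 with no filter (limma), 1189 above 10 TPM, 1329 with edgeR and 0 to 771 with a culture left out, and members called were 2 with a pseudocount of 1, 1 above 10 TPM, 2 with edgeR and 1 with DESeq2. Between the plasmid strains members called were 2 from TPM and 2 to 4 with a culture left out, and genes 1631 to 2269. In total RNA of R28P-30B against WT, members called, TMA10 included, were 2 above 10 TPM, 2 with only the 2 strains and 1 to 2 with a culture left out, and genes 737 to 1520. Against the libraries labelled R28P-30A, genes called were 433 with no trend and 341 to 674 with a culture left out, and members 0 to 1.

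The replicate numbers were not taken to pair the cultures, since the labels name no shared origin and there are only 2 numbers. Same-numbered deviations correlated at 0.15, −0.17 and 0.11 for the index and at 0.11, 0.12 and 0.15 for total RNA. With the replicate block, genes called for the index were 1295 (libraries labelled R28P-30A against WT), 644 (R28P-30B against WT) and 2368 (between the plasmid strains). In total RNA they were 1907 (R28P-30B against WT) and 1083 (R28P-30B against the libraries labelled R28P-30A). Among the members TMA7, TMA17 and TMA46 passed in total RNA against WT. TMA10, a description there, is not counted. The crossed pairing of the libraries labelled R28P-30A with WT gave 1752 genes and 2 members.

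Values that turned direction, none of them called, were these. In index of the libraries labelled R28P-30A against WT, TMA10 was 0.00169 with DESeq2, TMA17 was 0.0415 centred, 0.0437 with edgeR and 0.0566 with DESeq2, TMA64 was 0.0812, 0.0830 and 0.0961 in the same settings, and TMA20 was −0.0672 from TPM. In R28P-30B against WT from TPM, TMA10 was 0.0153, TMA17 0.0195, TMA19 0.00583, TMA20 0.0987 and STM1 0.0434. Between the plasmid strains TMA10 was −0.00858 with a pseudocount of 0.5, −0.0703 with 1, −0.13 centred, −0.0394 without ribosomal protein genes and −0.11 with edgeR and with DESeq2. TMA17 was −0.15 centred, −0.0639 without ribosomal protein genes, −0.14 with edgeR and −0.15 with DESeq2, TMA64 was −0.0506, −0.0428 and −0.0487 centred, with edgeR and with DESeq2, and from TPM TMA16 was 0.21, TMA20 0.17 and TMA46 0.21. In total RNA between the plasmid strains TMA64 was 0.00278 centred, 0.0125 with edgeR and 0.00733 with DESeq2.

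With a culture left out, the index of the libraries labelled R28P-30A against WT ran from −0.52 to 0.12 for TMA10. In R28P-30B against WT it ran from −0.46 to 0.18 for TMA10, −0.22 to 0.0325 for TMA17 and −0.0846 to 0.0578 for TMA20. Between the plasmid strains it ran from −0.0699 to 0.18 for TMA10, −0.13 to 0.0894 for TMA16, −0.0926 to 0.16 for TMA17, −0.14 to 0.00427 for TMA20 and −0.15 to 0.0995 for TMA46. Total RNA of R28P-30B against WT ran from −0.0192 to 0.0800 for TMA16, −0.00946 to 0.0732 for TMA20 and −0.00140 to 0.0467 for STM1. Against the libraries labelled R28P-30A it ran from −0.0101 to 0.23 for TMA7, −0.00916 to 0.0901 for TMA16 and −0.14 to 0.0206 for TMA46.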
